A study of Saccharomyces cerevisiae with 7 samples.

Results

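The 4 arrays of budding yeast (Saccharomyces cerevisiae) lacking either subunit of the Ssn6-Tup1 corepressor were taken as 1 group and set against the 3 wild-type arrays. A gene was a member of the comparison when all 4 deletion arrays lay above, or all 4 lay below, all 3 wild-type arrays. Of 5449 genes, 2027 met this condition (37.2%): 759 were higher in the deletions (13.9%) and 1268 were lower (23.3%). The deletion group held 2 arrays from an Ssn6 knockout and 2 from a TUP1 knockout, and the wild-type group held 3 arrays. All were in the BY4742 background, a haploid laboratory strain of the alpha mating type, and were grown in 200 mL of YEP medium with 2% glucose to an OD600 of 0.8. No treatment or further allele is labelled. The 2 deletion arrays of a genotype may come from 1 strain isolate, which is not stated in the sources used here, and neither is whether replicates were separate cultures, so the p-values measure a spread between samples that may be technical. In the pooled fit this spread also holds any difference between the 2 deletions, so a gene that differs between them can miss the threshold for that reason. In bulk RNA, a change in the number of cells that express a gene and a change in RNA per cell cannot be told apart.

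Ssn6 (gene CYC8) and Tup1 (gene TUP1) form a corepressor that does not bind DNA itself. Repressors that recognise particular promoters bring it there: Mig1 and Nrg1 at glucose-repressed genes, Rox1 and Mot3 at oxygen-regulated genes, alpha2 with Mcm1 at a-specific mating genes, and Rfx1 at DNA damage genes. The complex keeps nucleosomes in place and recruits histone deacetylases, and it is known in yeast grown on glucose for holding whole groups of unused genes off. The series title names its part in nucleosome organisation and transcription. Pooling the deletions asks which genes were shifted whichever subunit was lost, though a member need not pass a test against wild type in each deletion alone.

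The values are log2 expression values as deposited, so a difference of 1 is 2-fold and a difference of 4 is 16-fold. The median gene stood at 10.95 to 11.06 on the 7 arrays. The array also carries 1746 probe sets for genes of fission yeast, and their 95th percentile, used as a background floor, stood at 5.50 to 5.67, with 36 to 70 genes under it. Differences between 2 wild-type arrays had a standard deviation over genes of 0.367 to 0.498. This standard deviation was 0.197 within the ssn6 pair, 0.409 within the tup1 pair, 0.449 to 0.587 between arrays of different deletions and 0.772 to 0.954 between a deletion and a wild-type array. For actin, the 3′ control probe set exceeded its 5′ partner by 2.85 on wild-type replicate 2 and by 0.52 to 0.92 elsewhere. Whether deletion and wild-type samples were handled together is not stated, so any such batch and the groups cannot be told apart.

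The deleted genes did not themselves meet the condition, because each was low in only 1 of the pooled genotypes. CYC8 (YBR112C) read 11.22, 11.32 and 11.24 in wild type, 5.62 and 6.07 in the ssn6 deletion, and 11.56 and 11.43 in the tup1 deletion. TUP1 (YCR084C) read 12.50, 11.56 and 12.19 in wild type, 11.81 and 11.90 in the ssn6 deletion, and 4.69 and 5.07 in the tup1 deletion. Each gene was thus low on the 2 arrays labelled for its own loss and level with wild type on the other deletion arrays. The strain's own markers matched BY4742 for LEU2, LYS2 and URA3, biosynthetic genes that this strain lacks, which read 5.47 to 5.80, 4.40 to 4.82 and 3.49 to 3.88. HIS3, of which the strain is known to lack only a part, read 11.82 to 12.57.

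In the pooled fit with limma (Benjamini-Hochberg adjusted p under 0.05), 1101 genes passed the threshold (20.2%), 493 that rose (9.05%) and 608 that fell (11.2%). All but 2 of these also met the condition of no overlap. The exceptions were FKS3, a member of the glucan synthase family, which rose, and SPA2, a scaffold of polarised growth, which fell. Of the members, 928 did not pass the threshold, and 646 of those had an unadjusted p under 0.05. Each deletion was also set against wild type in a limma fit with a mean per genotype. There 363 of the 759 higher and 274 of the 1268 lower members passed in both deletions (adjusted p under 0.05). An exact permutation test of 1 gene cannot go below 0.0571 with 3 arrays against 4, so no gene could pass such a test at 0.05. Leaving out 1 array moved the number of falls by more than 1.5 times for wild-type replicate 1 (263), replicate 2 (401) and replicate 3 (314), ssn6 replicate 1 (367) and ssn6 replicate 2 (342).

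Members that lay higher were fewer but moved further than members that lay lower. The median difference was 0.83 for the 759 higher members and −0.57 for the 1268 lower ones, against −0.11 over all genes. At least 2-fold, 311 members were higher (5.71%) and 174 were lower (3.19%). At least 4-fold there were 126 against 10, and at least 16-fold 28 against 0. On the fission yeast probe sets, which have no target in these cells, 3.78% lay higher and 3.49% lay lower by the same condition, and 0 of them reached 2-fold.

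**Figure D1:**
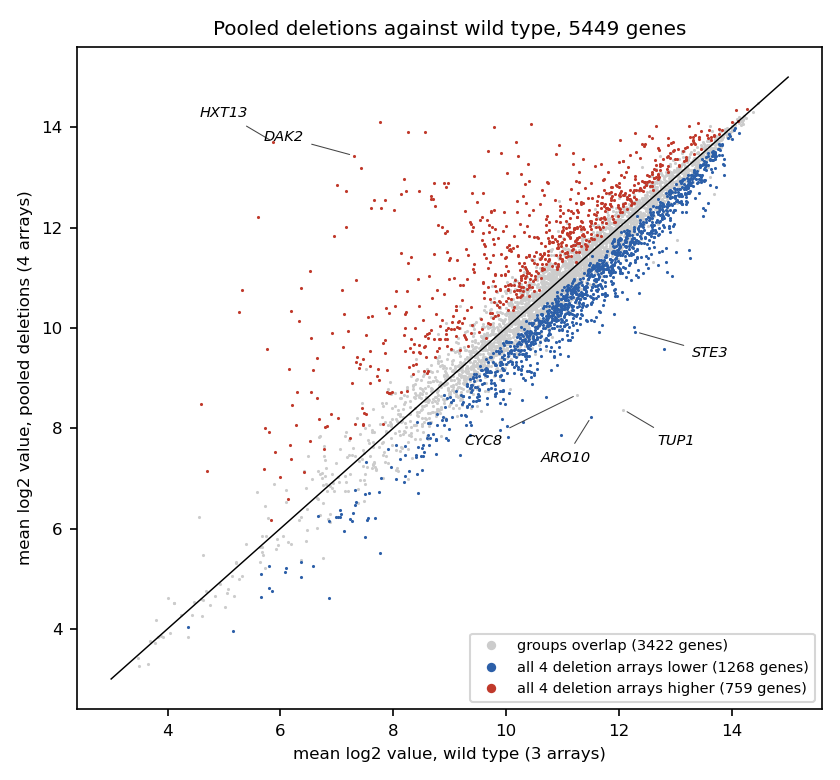
Mean log2 value of the 4 pooled deletion arrays against the mean of the 3 wild-type arrays for 5449 genes, with the line of equality. Red points are the 759 genes whose 4 deletion arrays all lay higher, blue points the 1268 that all lay lower, and grey points overlap. Red points reach far from the line at the left, where wild-type levels are low, while blue points form a narrow band under it. CYC8 and TUP1 are grey because only 1 deletion lowers each.

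The largest rises were genes of sugar and polyol uptake, spore wall synthesis and anaerobic cell wall proteins. HXT13, a member of the hexose transporter family that is also known to carry polyols, read 5.89, 5.70 and 6.03 in wild type, 13.83 and 13.77 in the ssn6 deletion, and 13.69 and 13.55 in the tup1 deletion. All 4 deletion arrays were thus high and close together, far above wild type. The difference was 7.84 ± 0.13 (SE), or 228-fold (adjusted p = 3.08e-08). Its relatives HXT15 (6.60 ± 0.50) and HXT17 (6.34 ± 0.18) followed, and all 3 were measured on probe sets that may also bind related genes. DAK2, a kinase for dihydroxyacetone, read 7.31, 7.12 and 7.46 in wild type against 13.68, 13.65, 13.26 and 13.15 in the deletions, a rise of 6.14 ± 0.18 with no overlap (adjusted p = 4e-07).

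DAN1, a cell wall mannoprotein of cells grown without oxygen, read 7.08, 6.72 and 7.19 in wild type, 13.39 and 13.48 in the ssn6 deletion, and 12.20 and 12.34 in the tup1 deletion. It was high in both deletions and higher with Ssn6 lost. DIT1 and DIT2 encode enzymes of dityrosine synthesis for the outer spore wall, and their rises were 5.76 ± 0.15 and 5.56 ± 0.17. DIT1 read 7.52, 7.13 and 7.65 in wild type and 13.18, 13.31, 13.23 and 13.07 in the deletions. Here the deletion arrays spanned a narrow range, in cells that are haploid and were growing on glucose. YNR071C, annotated as a putative aldose epimerase, lies beside HXT17 and rose by 5.65 ± 0.14.

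The other members of the 16 largest rises stood between 4.77 and 5.43. They were VBA3 (a vacuolar amino acid permease), PAU24 (a seripauperin), GAT3 (a GATA-type zinc finger protein), ERR3 (a relative of enolase), MFA2 (a precursor of the a-factor pheromone), SNO4, YML083C and YDL218W. VBA3 and GAT3 were under the floor on wild-type replicates 1 and 2 and above it on replicate 3, as HXT15 was, and the SE of their differences was 0.65 for VBA3 and 0.39 for GAT3. Of the 28 rises of at least 16-fold, 9 were on probe sets that may bind several genes of a family, 14 were subtelomeric and 6 have only a systematic name.

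**Figure D2:**
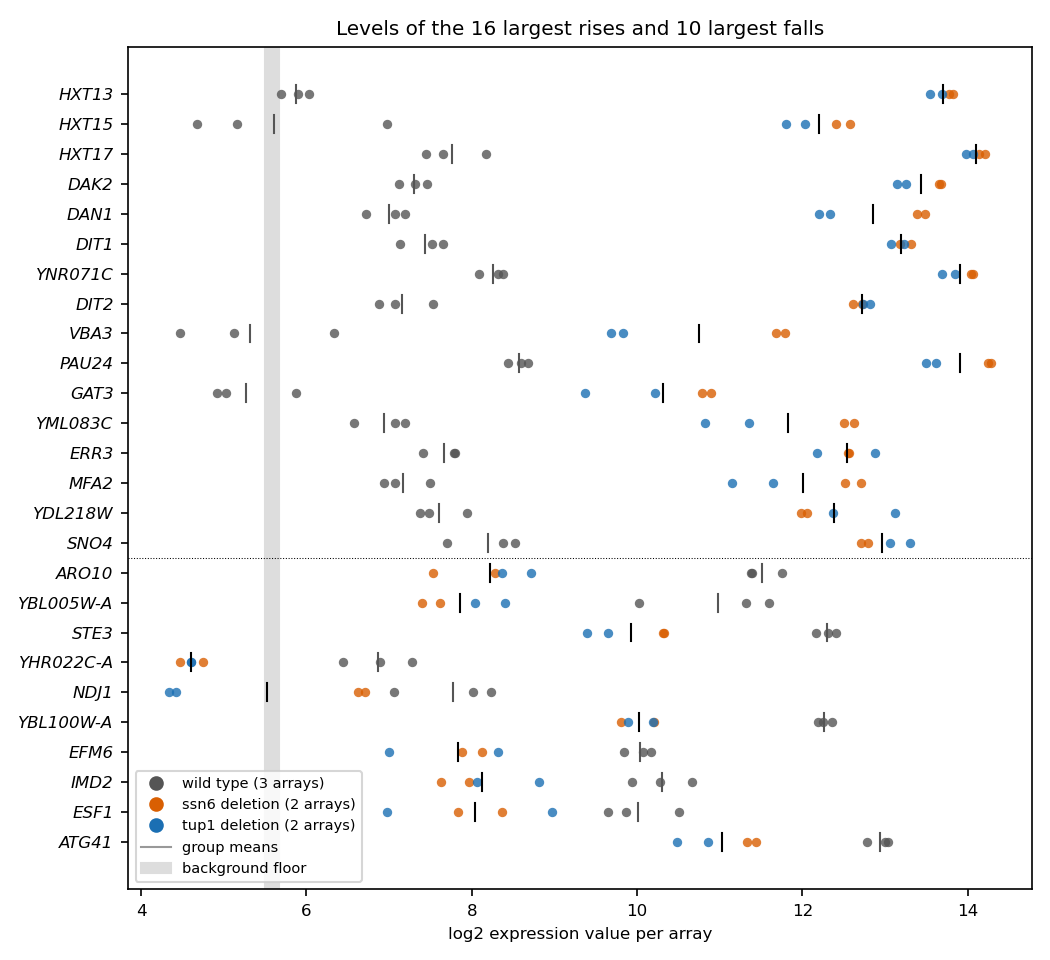
Log2 value on each array for the 16 largest rises (above the dotted line) and the 10 largest falls, with wild type in grey, the ssn6 deletion in orange and the tup1 deletion in blue; short bars are group means and the grey band is the background floor. In every row the 4 deletion points lie on 1 side of the 3 wild-type points. HXT13, at 13.55 to 13.83, is farthest from its wild-type values, and NDJ1 has its tup1 points under the floor.

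The falls were smaller. ARO10, a decarboxylase that breaks down aromatic amino acids, read 11.38, 11.39 and 11.76 in wild type, 8.29 and 7.53 in the ssn6 deletion, and 8.37 and 8.71 in the tup1 deletion. All 4 deletion arrays were low, and the difference of −3.28 ± 0.27 was the largest fall (adjusted p = 0.000137). IMD2, an IMP dehydrogenase of guanine nucleotide synthesis, read 9.94, 10.28 and 10.67 in wild type and 7.97, 7.63, 8.07 and 8.81 in the deletions. It fell by 2.18 ± 0.29 on the log2 scale, with tup1 replicate 2 nearest to wild type.

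YBL005W-A and YBL100W-A, which encode Gag proteins of Ty1 and Ty2 retrotransposons, changed by −3.12 ± 0.39 and −2.24 ± 0.14, on probe sets that may bind many copies. ATG41, an autophagy gene, read 13.001, 13.04 and 12.78 in wild type and 11.44, 11.33, 10.86 and 10.48 in the deletions, a change of −1.92 ± 0.24. EFM6, a methyltransferase for an elongation factor, changed by −2.20 ± 0.30. ESF1, which acts in pre-rRNA processing, changed by −1.97 ± 0.44 but missed the threshold without wild-type replicate 2 or 3. YHR022C-A was under the floor on all 4 deletion arrays and was at least 2.47-fold lower there (adjusted p = 0.000196).

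Function was read from 44 gene lists that hold 934 measured genes. Of the 2027 members, 409 were in at least 1 list and 1618 in none. Among called members, 156 rises and 76 falls were in a list, and 76 rises and 49 falls have only a systematic name. The lists with the highest shares of higher members were those of flocculins, a-specific genes, seripauperins, DAN and TIR mannoproteins and maltose genes, while ribosome biogenesis, phosphate and alpha-specific genes had the highest shares of lower members.

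**Figure D3:**
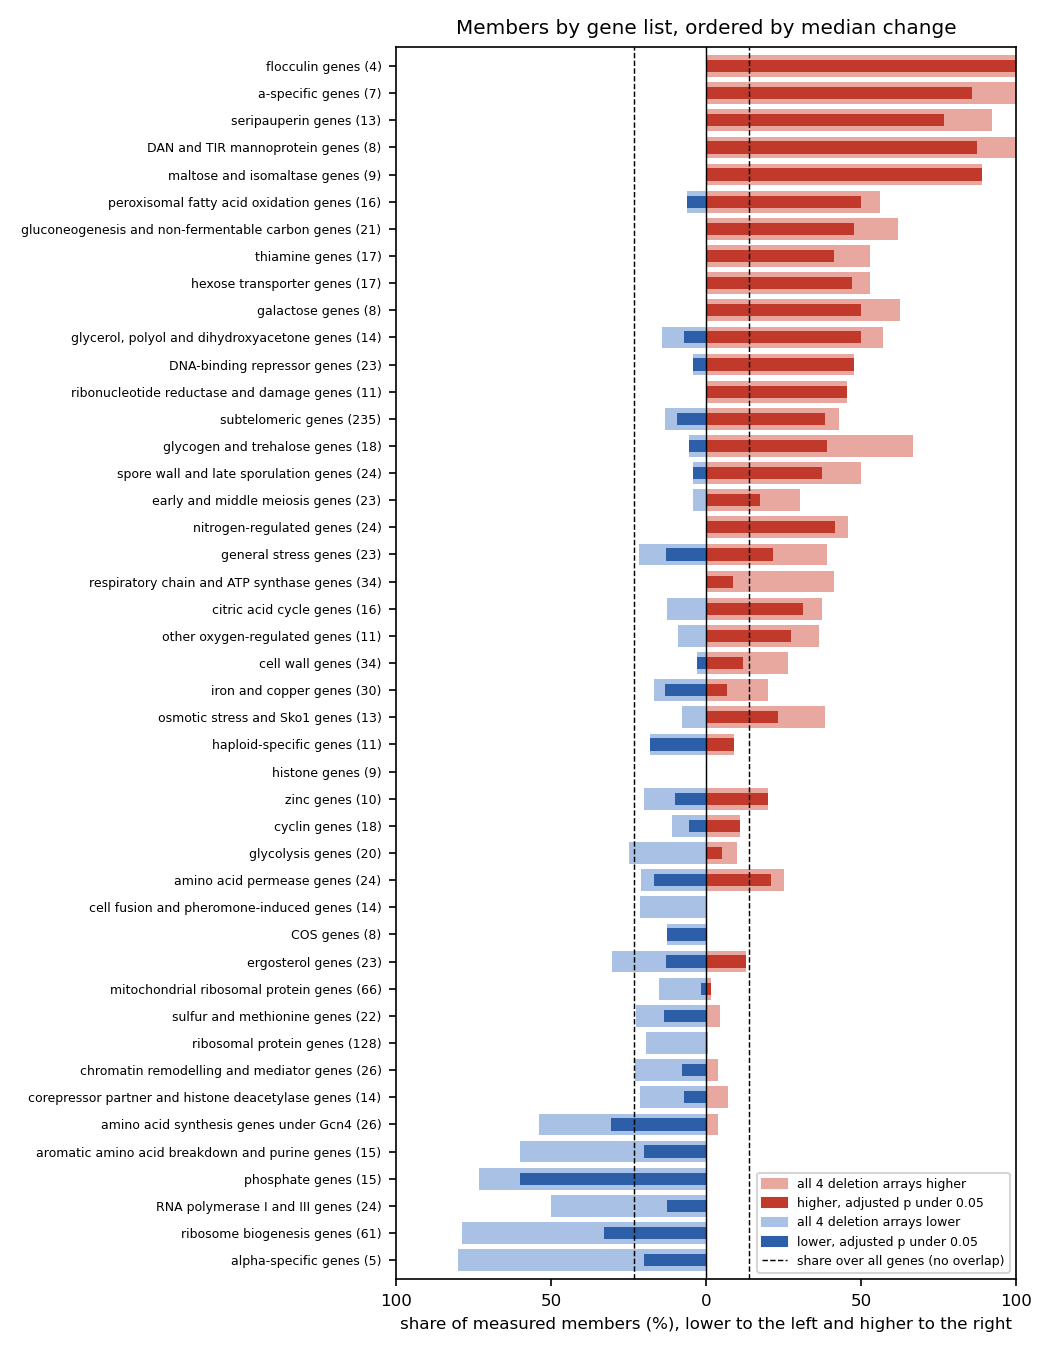
Share of each list's measured members (their number is in brackets) whose 4 deletion arrays all lay higher (pale red, to the right) or all lay lower (pale blue, to the left), with the share past the adjusted p threshold in dark bars; lists are ordered by median change. Dashed lines mark the shares over all genes, 13.9% higher and 23.3% lower. All 4 flocculin and all 7 a-specific genes lay higher, and 48 of 61 ribosome biogenesis genes lay lower.

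Mating genes of the opposite cell type rose. All 7 a-specific genes lay above wild type and 6 rose, with a median difference of 3.36. MFA2 read 6.94, 7.49 and 7.07 in wild type, 12.71 and 12.52 in the ssn6 deletion, and 11.15 and 11.65 in the tup1 deletion. AGA2, the binding subunit of a-agglutinin, read 6.22, 6.55 and 6.78 in wild type and 11.57, 11.70, 10.58 and 10.71 in the deletions. Both were far above wild type on every deletion array, with the ssn6 arrays on top. STE2, the receptor for alpha-factor, rose by 3.36 ± 0.40, and STE6, the exporter of a-factor, by 1.04 ± 0.17. BAR1, the protease that degrades alpha-factor, read 7.33, 7.39 and 7.08 in wild type, 9.88 and 9.86 in the ssn6 deletion, and 8.03 and 7.84 in the tup1 deletion. It met the condition of no overlap but not the pooled threshold (adjusted p = 0.0636), and its tup1 arrays lay 1.93 ± 0.16 below its ssn6 arrays.

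The cell's own alpha-specific genes lay lower. They were well above background in wild type, and 4 of 5 lay below wild type on every deletion array. STE3, the receptor for a-factor, read 12.41, 12.17 and 12.31 in wild type, 10.33 and 10.31 in the ssn6 deletion, and 9.39 and 9.65 in the tup1 deletion. It fell by 2.37 ± 0.25 on the log2 scale and was the only 1 of the 5 past the pooled threshold. MF(ALPHA)2, an alpha-factor precursor, read 12.77, 12.83 and 12.79 in wild type and 12.20 and 12.28 in the ssn6 deletion, but 6.76 and 7.07 in the tup1 deletion. MF(ALPHA)1 (−1.74 ± 0.59) and the agglutinin gene SAG1 (−1.52 ± 0.64) had the same order, with the tup1 arrays lowest. MF(ALPHA)2 and SAG1 differed between the deletions (limma adjusted p under 0.05), so their pooled means stand for neither deletion. MF(ALPHA)1 did not pass that comparison. Of 11 genes active in haploids of both types, 8 overlapped between the groups, and the median difference was −0.001. RME1, a repressor of meiosis, rose by 1.18 ± 0.24, the 1 rise of the list (9.09%, near the 9.05% of all genes). STE12 (the transcription factor of the pheromone response) and GPA1 (its G protein alpha subunit) passed as falls (18.2%, against 11.2% of all genes). The calls of STE12 and GPA1 were both lost without wild-type replicate 1 or 2, and that of GPA1 also without wild-type replicate 3 or either tup1 array. Of 14 genes of cell fusion, 0 passed in the pooled limma fit and 3 had an unadjusted p under 0.05, and 2 passed as falls when either ssn6 array was left out. On all 4 deletion arrays 3 of them lay lower (21.4%, near the 23.3% of all genes). Between the deletions 6 of the 14 differed, against 2.40% of all genes. The list means were 9.53, 9.85 and 9.68 in wild type, 9.97 and 9.85 in the ssn6 deletion, and 9.02 and 8.99 in the tup1 deletion.

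All 4 flocculin genes, which encode proteins for cell-cell adhesion, rose, with a median of 3.69. FLO1 read 8.20, 7.75 and 8.72 in wild type and 12.71, 12.72, 12.40 and 13.06 in the deletions. FLO11, which is known for surface adhesion and filamentous growth, read 8.79, 8.54 and 8.84 in wild type, 13.56 and 13.72 in the ssn6 deletion, and 12.31 and 11.997 in the tup1 deletion. FLO9 rose by 3.21 ± 0.14 and FLO10 by 2.39 ± 0.20. No flocculin array of a deletion came near the wild-type range.

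Mannoproteins and seripauperins, which yeast is known to make when oxygen is short, were measured as 2 lists. Of 8 DAN and TIR genes, 8 lay higher and 7 rose, with a median of 2.70. TIR2 read 9.96, 9.44 and 10.32 in wild type and 13.75, 13.82, 13.18 and 13.16 in the deletions. Of 13 seripauperin (PAU) genes, 12 lay higher and 10 rose, with a median of 2.75, and PAU23 and PAU24 belong to both lists. PAU9 read 10.06, 10.65 and 10.63 in wild type, 14.53 and 14.65 in the ssn6 deletion, and 13.36 and 13.69 in the tup1 deletion. PAU genes are close in sequence, and their probe sets may share signal. The count of 10 fell to 6 without wild-type replicate 1 or 3.

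Other oxygen-regulated genes rose in part. Among 11 others on that list, 3 rose (27.3%, against 9.05% of all genes). They were SUT1, a regulator of sterol uptake (1.98 ± 0.20), ANB1, the form of eIF5A used without oxygen (1.68 ± 0.38), and CYC7, a cytochrome c isoform (1.25 ± 0.21). ANB1 lost its call without wild-type replicate 1 or 2, which took the count to 2. ROX1, the repressor of this group, read 11.87, 11.77 and 11.45 in wild type and 11.45, 11.78, 11.94 and 11.54 in the deletions, with full overlap. The sterol importers PDR11 and AUS1 rose by 2.30 ± 0.20 and 1.99 ± 0.30. Among 34 cell wall genes, 9 lay higher, 1 lay lower and 4 rose (11.8%, near the 9.05% of all genes), including PIR3, a structural protein (2.70 ± 0.22).

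Hexose transporter genes did not move alike. Of 17 genes on the list, 9 lay higher and 8 rose, with a median of 0.80. The 8 were HXT8, HXT9, HXT10, HXT11, HXT13, HXT15, HXT17 and the galactose permease GAL2. HXT8 read 6.16, 5.88 and 6.45 in wild type and 9.45, 9.66, 8.56 and 9.07 in the deletions. By contrast, the main glucose transporters were bright on all arrays and did not pass the threshold. HXT3 read 13.84, 13.57 and 13.75 in wild type and 13.85, 13.87, 13.22 and 13.72 in the deletions, and the differences of HXT1 and HXT3 were −0.002 ± 0.30 and −0.05 ± 0.18.

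Genes for other carbon sources rose in several lists. Of 9 maltose and isomaltose genes 8 rose, with a median of 2.02. IMA1, an isomaltase, read 8.40, 8.34 and 8.64 in wild type and 13.00, 13.01, 12.51 and 12.43 in the deletions. MAL32, a maltase on a probe set that may bind its copy, rose by 3.88 ± 0.21. Galactose genes changed less: 5 of 8 lay higher and 4 rose, with a median of 0.75, and GAL10 read 6.77, 6.88 and 6.66 in wild type and 7.57, 7.29, 7.78 and 7.71 in the deletions. All deletion arrays were above wild type, though they remained among the dimmer genes. SUC2, secreted invertase, rose from 12.73, 12.64 and 12.25 to 13.90, 13.97, 13.82 and 13.60.

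Of 14 genes for glycerol and polyols, 8 lay higher, 2 lay lower and 7 rose. FDH1, formate dehydrogenase, read 8.24, 7.85 and 7.48 in wild type, 12.05 and 12.02 in the ssn6 deletion, and 13.11 and 13.05 in the tup1 deletion, a rise of 4.70 ± 0.33. DSF1 and SOR2, dehydrogenases of mannitol and sorbitol that lie beside HXT13 and HXT15, rose by 4.23 ± 0.13 and 3.86 ± 0.20. Both were measured on probe sets that may bind a near copy. GPP1, a phosphatase of glycerol synthesis, fell from 13.96, 13.78 and 13.83 to 13.36, 13.35, 13.08 and 13.24, a call that was lost without wild-type replicate 1.

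Gluconeogenesis and peroxisomal genes rose in part. Of 21 genes of gluconeogenesis and non-fermentable carbon use, 13 lay higher and 10 rose, with a median of 0.90. PCK1, the first committed enzyme of gluconeogenesis, read 10.05, 10.28 and 10.45 in wild type, 12.62 and 12.69 in the ssn6 deletion, and 13.55 and 13.39 in the tup1 deletion. ADH2, the alcohol dehydrogenase that consumes ethanol, rose by 2.56 ± 0.21. Both genes had wild-type arrays close together and all deletion arrays well above them. Of 16 peroxisomal genes, 9 lay higher, 1 lay lower and 8 rose, with a median of 1.05. CTA1, peroxisomal catalase, read 9.28, 9.25 and 8.05 in wild type and 12.01, 11.98, 12.35 and 11.67 in the deletions. Wild-type replicate 3 was low in both lists, with list means of 10.77 against 11.45 and 11.34 for carbon genes and 9.91 against 10.57 and 10.56 for peroxisomal genes. Its part in these rises was not tested, and without it 6 carbon genes and 8 peroxisomal genes rose. The carbon count was also 6 without wild-type replicate 2, ssn6 replicate 1 or tup1 replicate 1, and POT1, the thiolase of fatty acid breakdown, missed the threshold without either tup1 array.

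Glycolysis genes showed little difference. Of 20, 1 rose (5%, against 9.05% of all genes), with a median of −0.04. By the condition of no overlap 2 lay higher (10%, against 13.9% of all genes) and 5 lay lower (25%, near the 23.3% of all genes). TDH3, the main glyceraldehyde-3-phosphate dehydrogenase, read 14.43 to 14.48 in wild type and 14.47 to 14.52 in the deletions, near the top of the scale. The exception was PDC6, a minor pyruvate decarboxylase, which rose by 1.68 ± 0.18. Of 34 respiratory genes, 14 lay higher, 0 lay lower and 20 overlapped, with a median of 0.22, and 3 rose (8.82%, near the 9.05% of all genes). Among them NDE2, an external NADH dehydrogenase, stood out at 3.08 ± 0.25. Of 16 citric acid cycle genes 5 rose, by 0.42 to 0.74. That count came to 2 without any 1 of the wild-type arrays or ssn6 replicate 1, to 1 without ssn6 replicate 2 and to 3 without tup1 replicate 2, while the respiratory count came to 1 without wild-type replicate 1 or 2, either ssn6 array or tup1 replicate 1.

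Sporulation genes rose selectively. Of 24 spore wall and late genes, 12 lay higher, 1 lay lower and 9 rose (37.5%, against 9.05% of all genes), with a median of 0.42. SPS100, a spore wall protein, read 9.95, 10.61 and 9.98 in wild type and 13.63, 13.63, 13.89 and 13.67 in the deletions. SPS4 (2.75 ± 0.34) and the glucoamylase SGA1 (2.32 ± 0.14) rose as well. The markers set for sporulating diploids did not move together. SPS4, which is one of them, rose, while SMK1 (−0.12 ± 0.31), NDT80 (−0.32 ± 0.17) and SPR3 (0.49 ± 0.31) overlapped between the groups. OSW2, a spore wall gene, fell from 9.09, 9.66 and 10.25 to 8.80, 8.42, 8.39 and 8.77, a call lost without wild-type replicate 2 or 3, ssn6 replicate 2 or tup1 replicate 1. Of 23 genes of early and middle meiosis, 7 lay higher (30.4%, against 13.9% of all genes) and 1 lay lower (4.35%, under the 23.3% of all genes). In the fit 4 rose (17.4%, against 9.05% of all genes). These were SPO20, a membrane fusion protein of spore formation (3.15 ± 0.22), IME1, the master inducer of meiosis (2.22 ± 0.26), the cohesin subunit REC8 (1.33 ± 0.21) and HOP1, a protein of meiotic chromosomes (1.17 ± 0.17). 

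DNA damage and stress genes rose in part. Of 11 ribonucleotide reductase and damage genes 5 lay higher and rose (45.5%, against 9.05% of all genes). HUG1, an inhibitor of the reductase, read 9.29, 9.20 and 9.78 in wild type and 13.24, 13.15, 12.65 and 13.09 in the deletions, and RNR3, a large subunit, rose by 2.54 ± 0.20. The other 3 rises (RAD54, RNR2 and RNR4) were under 1 on the log2 scale, and without any 1 of the wild-type or ssn6 arrays the count was 2, and without tup1 replicate 2 it was 3. Of 23 general stress genes, 9 lay higher, 5 lay lower (21.7%, near the 23.3% of all genes), 5 rose (21.7%) and 3 fell. The share that fell, 13.0%, was near the 11.2% of all genes. GRE1, a hydrophilin, read 11.32, 11.26 and 10.10 in wild type and 13.05, 13.04, 14.09 and 13.71 in the deletions. The peroxidase GPX2 and the Hsp70 gene SSA4 went the other way, by −1.34 ± 0.20 and −1.18 ± 0.14. The count of 5 stress rises was 3 without wild-type replicate 1. Of 18 glycogen and trehalose genes, 12 lay higher, 1 lay lower and 7 rose (38.9%), led by GAC1, a phosphatase subunit for glycogen synthase (2.15 ± 0.15). PGM1, a phosphoglucomutase, fell from 11.72, 11.22 and 11.82 to 10.24, 10.33, 10.0009 and 10.26.

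Genes for DNA-binding repressors were among the higher members. Of 23 on the list, 11 lay higher and rose and 1 lay lower and fell, with a median of 0.51. CIN5, a bZIP factor, read 10.37, 9.90 and 10.31 in wild type and 12.01, 12.32, 12.61 and 12.32 in the deletions. MIG3, a zinc finger repressor of the Mig1 family, rose by 1.99 ± 0.17, YAP6 by 1.80 ± 0.19 and NRG1, a glucose-dependent repressor, by 1.38 ± 0.29. Several of these proteins are known partners of the corepressor in yeast. The exception was SKN7, an oxidative stress factor (−0.67 ± 0.16), which lost its call without wild-type replicate 1 or 2 or tup1 replicate 2. Corepressor partners and histone deacetylases changed little, with 1 fall in 14 (HOS2, −1.08 ± 0.26), or 7.14% against 11.2% of all genes. Of 9 histone genes, 0 met the condition of no overlap or passed limma's threshold, with 1 at an unadjusted p under 0.05. The call of HOS2 was lost without any 1 of the wild-type arrays or tup1 replicate 2.

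Nutrient genes moved in both directions. Of 24 nitrogen-regulated genes, 11 lay higher and 10 rose, among them the general amino acid permease GAP1. It read 10.83, 10.67 and 10.69 in wild type and 13.10, 13.00, 12.80 and 12.74 in the deletions. Of 17 thiamine genes 9 lay higher and 7 rose, with a median of 0.86, and THI4, a thiazole synthase, rose by 1.90 ± 0.19. BIO5, a transporter of biotin precursors, rose from 8.07, 8.16 and 7.89 to 11.15, 11.20, 9.97 and 10.59. The adjacent genes BIO4 and BIO3, which make biotin, rose with it. Iron, copper and zinc genes were mixed. Of 30 iron and copper genes, 6 lay higher, 5 lay lower, 2 rose and 4 fell (6.67% and 13.3%, near the 9.05% and 11.2% of all genes), and leaving out wild-type replicate 1 or 3, or an ssn6 array, left 1 rise. FIT1, a mannoprotein of iron uptake, rose by 1.87 ± 0.33, while TIS11 and CTH1, which promote the decay of mRNAs for iron-using proteins, changed by −1.44 ± 0.28 and −0.92 ± 0.18. ZPS1, a cell wall protein of zinc-starved cells, rose by 2.35 ± 0.16.

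Phosphate genes lay lower. Of 15, 11 lay below wild type on every deletion array and 9 fell, with a median of −0.56. VTC3, a subunit of the polyphosphate polymerase, read 12.93, 12.81 and 12.94 in wild type and 12.01, 12.003, 11.94 and 12.21 in the deletions. PHM6, an uncharacterised phosphate-regulated gene, fell by 1.37 ± 0.26 on the log2 scale. The shift was below 2-fold for VTC3 but wider than the whole wild-type range. PHO5, the secreted acid phosphatase, was lower by −1.13 ± 0.26 and lost its call without wild-type replicate 1 or 3. Without wild-type replicate 1 the list had 3 falls, without replicate 3 it had 4, and without ssn6 replicate 1 or 2 it had 6.

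Amino acid synthesis genes under the activator Gcn4 also lay lower, 14 of 26, of which 8 fell, with a median of −0.39. HOM3, aspartate kinase, read 12.58, 12.75 and 12.73 in wild type, 11.62 and 11.71 in the ssn6 deletion, and 10.63 and 11.06 in the tup1 deletion. TRP3 (−0.97 ± 0.16) and ILV2 (−0.91 ± 0.15), of tryptophan and of isoleucine and valine synthesis, fell as well. GCN4 itself read 13.35, 13.14 and 13.44 in wild type and 13.46, 13.49, 13.11 and 13.21 in the deletions, with overlap. Leaving out wild-type replicate 1 or 3 gave 4 falls, and leaving out ssn6 replicate 2 gave 5. ARO9, an aromatic aminotransferase that works in 1 pathway with ARO10, read 12.45, 12.54 and 12.08 in wild type, 10.28 and 9.99 in the ssn6 deletion, and 11.38 and 11.10 in the tup1 deletion. It fell with ARO10, and 9 of the 15 genes of aromatic breakdown and purine synthesis lay lower.

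Ribosome biogenesis formed the largest group of lower members. Of 61 genes, 48 lay below wild type on all 4 deletion arrays, 0 lay above and 20 fell, with a median of −0.85. UTP6, a component of the small-subunit processome, read 9.92, 10.23 and 9.63 in wild type, 8.45 and 8.41 in the ssn6 deletion, and 7.396 and 8.49 in the tup1 deletion. Tup1 replicate 1 was the lowest array for it and for the list as a whole. The list means were 11.30, 11.38 and 11.01 in wild type, 10.66 and 10.61 in the ssn6 deletion, and 9.59 and 10.61 in the tup1 deletion. The mean of the ribosomal RNA control probe sets was also lowest on tup1 replicate 1, at 6.85, with 9.39 on the other tup1 array, 8.72 and 7.57 in the ssn6 deletion, and 11.24, 8.46 and 12.49 in wild type. The part of this signal in the lower values was not tested. Without tup1 replicate 1 the number of falls was 29, and the other 3 deletion arrays still lay below wild type. Without wild-type replicate 1 it was 3, without replicate 2 it was 5, without replicate 3 it was 10 and without ssn6 replicate 2 it was 13. Of 24 genes for RNA polymerases I and III, 12 lay lower and 3 fell (12.5%, near the 11.2% of all genes), and leaving out any 1 of the wild-type arrays or tup1 replicate 2 left 1.

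Of 128 ribosomal protein genes, 25 lay lower (19.5%, under the 23.3% of all genes) and 1 lay higher. In this list 0 passed limma's threshold, with a median of −0.16 against −0.11 over all genes. At an unadjusted p under 0.05 the number was 2. Tup1 replicate 1 had a list mean of 12.63 against 13.15 to 13.26 on the other 6 arrays. Mitochondrial ribosomal protein genes had 10 lower members (15.2%, also under the 23.3% of all genes) and 1 higher among 66. Their 1 rise and 1 fall rested on single arrays. No fall passed without any 1 array other than tup1 replicate 1, without which there were 3. No rise passed without wild-type replicate 1 or 3 or tup1 replicate 2. The part of tup1 replicate 1 in the lower calls of growth-related genes was not tested beyond the counts without it.

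Higher and lower members were also described by their level in wild type. A level here is a probe set's signal, and probe sets differ in brightness for equal RNA, so the bins rank signal and not molecules. The median wild-type level was 10.60 for higher members, 11.34 for lower members and 10.9995 for all genes. For rises of at least 2-fold it was 9.42, and for those of at least 16-fold it was 7.63, with a range of 5.27 to 9.79. In 10 bins of wild-type mean, 147 of 544 genes in the dimmest bin lay higher (27.0%) and 72 lay lower (13.2%). In the brightest bin 47 of 545 lay higher (8.62%) and 190 lay lower (34.9%).

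The size of the shift changed with level too. The median difference of higher members was 1.91 in the dimmest bin and 0.35 in the brightest, and 26 of the 28 rises of at least 16-fold were in the dimmest bin. Called rises numbered 130 there and 10 in the brightest bin. The wild-type arrays enter both the level and the difference, so these 2 quantities are not independent. With bins by the mean over all 7 arrays, 73 genes of the dimmest bin lay higher (13.4%) and 107 lay lower (19.7%), and in the brightest bin 83 lay higher and 139 lay lower. Higher members were thus more than lower ones in the dimmest bin only where bins were set by the wild-type level.

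**Figure D4:**
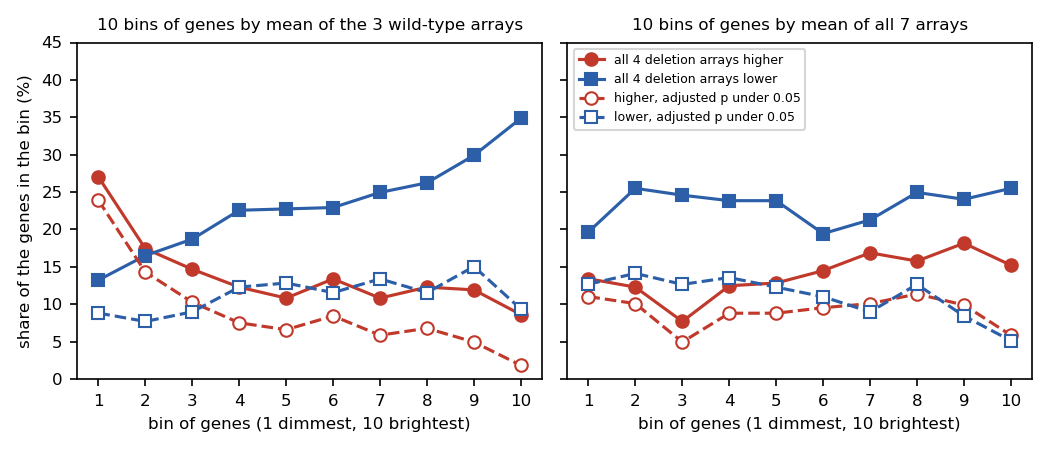
Share of genes in each of 10 equal bins whose 4 deletion arrays all lay higher (red circles) or all lay lower (blue squares), with the shares past the adjusted p threshold as open symbols and dashed lines. On the left, bins by the mean of the 3 wild-type arrays show 27.0% higher in bin 1 and 8.62% in bin 10; on the right, bins by the mean of all 7 arrays show 13.4% higher in bin 1.

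Genes at the bottom of the wild-type range were of mixed kinds. Only 2 higher members were under the floor on all 3 wild-type arrays. YHR213W, annotated as similar to flocculins, read 4.60, 4.14 and 5.04 in wild type and 8.50, 9.20, 8.08 and 8.13 in the deletions, at least 7.46-fold higher. TDA8, a subtelomeric gene near FLO9, was at least 2.97-fold higher. Of the 147 higher members in the dimmest wild-type bin, 8 were among the brightest of 10 bins in the deletions. HXT13, HXT17 and DAK2 belong to the genes that went from dim to bright.

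In the brightest wild-type bin 8 members lay lower by at least 2-fold and 0 lay higher by as much. Those 8 included ATG41, SSA4 and DBP2, an RNA helicase (−1.50 ± 0.33), whose call was lost without wild-type replicate 1. The 6 called members with the highest wild-type level all fell: ZUO1 (a ribosome-associated chaperone), SSA2 (a cytosolic Hsp70), HSP82 (Hsp90), GPP1, SAH1 (which hydrolyses S-adenosylhomocysteine) and STI1 (a partner of Hsp90), by 0.49 to 0.91 in size. SAH1 read 13.77, 13.63 and 13.76 in wild type and 12.92, 12.98, 12.49 and 12.85 in the deletions. SSA2 read 13.86, 13.89 and 13.85 in wild type and 13.32, 13.22, 12.60 and 13.10 in the deletions. SAH1 kept its call with any 1 array left out, whereas SSA2, ZUO1 and HSP82 lost theirs without any 1 of the wild-type arrays and STI1 without wild-type replicate 3 or either ssn6 array. The 10 called rises in the brightest bin were chosen for mention after their values were seen. They were CTT1 (cytosolic catalase, 0.78 ± 0.14), GDB1, SOL4, HSP26, CCP1, GPH1, RNR2, RNR4, ACO1 and MCR1, and none reached 2-fold.

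Chromosome ends held many higher members. Of 235 genes among the 10 outermost of each chromosome arm, 101 lay higher and 31 lay lower, and 90 rose (38.3%) against 9.05% of all genes. These genes were also dim in wild type, with a median level of 9.68 against 10.9995. Called rises also had called rises as neighbours: 23.1% of the genes next to one were called rises, against 8.73% of all genes in 5017 neighbouring pairs. The share was 28.4% for divergent pairs, 21.6% for tandem pairs and 20.3% for convergent pairs. For falls the corresponding shares were 13.2% and 11.2%.

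Higher members formed 15 runs of at least 4 consecutive measured genes, where unmeasured genes in between were skipped, and 9 of these runs held subtelomeric genes. On chromosome V a run held DSF1, HXT13, HPA3, SIT1 and AVT2. On chromosome IV a run held MPH2, SOR2, HXT15, THI13 and AAD4. The longest, of 6 genes each, held FLO9 on chromosome I and HXT9, REE1, IMA5 and HXT8 on chromosome X. On chromosome XIV a run joined HXT17 with YNR071C, PDR18 and AIF1. Sugar transporter genes and their neighbours thus appear in 4 of the runs named. Lower members formed 23 runs, none with a subtelomeric gene, and the longest, of 7 genes, lay on chromosome XVI and included NIP7, a ribosome assembly gene. Probe sets of families at chromosome ends may share signal between copies.

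How far the pooled group hides differences between its 2 genotypes was tested in a fit with a mean per genotype, a contrast that the choice of members did not use. Of 5449 genes, 131 differed between the deletions (2.40%), 104 with the ssn6 deletion higher (1.91%) and 27 with the tup1 deletion higher (0.496%). Of the 2027 members, 49 differed, 32 of the higher (4.22%) and 17 of the lower ones (1.34%), beside the 2.40% of all genes. Among the 32, 27 rose further in the ssn6 deletion and 5 further in the tup1 deletion. Among the 17, 12 lay lower in the tup1 deletion and 5 lower in the ssn6 deletion. Most members that differed were thus higher in the ssn6 deletion, as were most such genes over all genes. The count of 49 depended on single arrays: it was 5 without ssn6 replicate 1, 1 without ssn6 replicate 2, 15 without tup1 replicate 1, 105 without tup1 replicate 2, 25 without wild-type replicate 1 and 84 without wild-type replicate 2.

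Among members above wild type, seripauperin genes had the largest differences in favour of the ssn6 deletion. The largest, PAU4 (tup1 minus ssn6, −2.99 ± 0.26), did not pass the pooled threshold. PAU8 read 9.16, 9.38 and 9.55 in wild type, 13.47 and 13.51 in the ssn6 deletion, and 10.16 and 11.30 in the tup1 deletion. PAU14 read 9.50, 9.81 and 9.91 in wild type, 13.68 and 13.75 in the ssn6 deletion, and 10.63 and 11.25 in the tup1 deletion. In both the tup1 arrays stood between wild type and the ssn6 arrays. The differences, tup1 minus ssn6, were −2.76 ± 0.34 for PAU8 (adjusted p = 0.0128), −2.77 ± 0.24 for PAU14 and −1.94 ± 0.14 for PAU17. The pooled calls of these 3 genes were lost without any 1 of the wild-type arrays or, for PAU14 and PAU17, either ssn6 array, and for PAU8 without either ssn6 array or tup1 replicate 2. STE2 (−1.38 ± 0.20), FLO11 (−1.48 ± 0.18) and DAN1 (−1.16 ± 0.19) were also higher in the ssn6 deletion, within much larger rises.

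Fewer members were higher in the tup1 deletion. SPG1, a gene needed for survival in stationary phase, read 10.66, 11.17 and 10.38 in wild type, 12.11 and 12.13 in the ssn6 deletion, and 13.66 and 13.69 in the tup1 deletion. HXT10 read 6.499, 6.46 and 6.67 in wild type, 9.39 and 8.94 in the ssn6 deletion, and 10.56 and 10.35 in the tup1 deletion. Both stepped up from wild type through ssn6 to tup1. SPG1 differed by 1.55 ± 0.25 between the deletions and HXT10 by 1.29 ± 0.19, and SPG1 missed the pooled threshold without wild-type replicate 1 or 3. Among lower members, NDJ1, a telomere protein of meiosis, read 8.24, 7.06 and 8.02 in wild type, 6.71 and 6.62 in the ssn6 deletion, and 4.34 and 4.42, under the floor, in the tup1 deletion. Its pooled call was lost without any 1 of the wild-type or tup1 arrays.

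**Figure D5:**
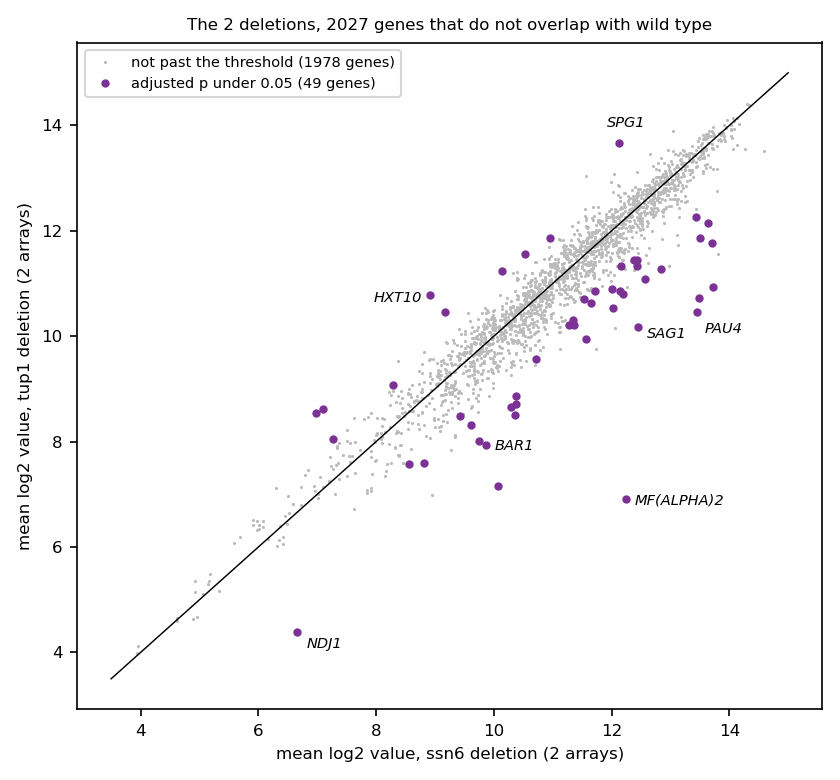
Mean log2 value of the 2 tup1 arrays against the mean of the 2 ssn6 arrays for the 2027 members, with the line of equality. Purple points are the 49 members that differed between the deletions at an adjusted p under 0.05 and grey points the other 1978. MF(ALPHA)2, at 6.76 and 7.07 on the tup1 arrays, lies farthest below the line, and SPG1 lies above it.

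Pooling also left out genes that changed in opposite directions or in 1 deletion only. Of 26 genes with a mean difference of at least 2-fold but overlapping groups, 10 differed between the deletions, CYC8 and TUP1 among them. THI22, a relative of thiamine synthesis enzymes, read 10.61, 11.10 and 10.40 in wild type, 12.35 and 12.42 in the ssn6 deletion, and 6.95 and 6.51 in the tup1 deletion. PAU18 read 10.69, 11.17 and 10.94 in wild type, 13.86 and 13.80 in the ssn6 deletion, and 10.90 and 11.57 in the tup1 deletion. THI22 was thus above wild type in 1 deletion and below it in the other, and PAU18 was apart in the ssn6 deletion alone. Both were picked after their values were seen.

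Near the edge of the condition the distinction was slight. RTC6, a mitochondrial ribosomal protein gene, was just inside with 10.72, 11.09 and 10.94 in wild type and 11.29, 11.09, 11.26 and 11.29 in the deletions. HOS3, a histone deacetylase gene, was just outside with 10.83, 10.67 and 10.47 in wild type and 11.001, 11.06, 11.47 and 10.83 in the deletions. In each, 1 deletion array and 1 wild-type array had the same value to 2 decimals. GPI17, VOA1 and YFT2 were the others just inside, and NOP10, NCS2 and SPO1 the others just outside, with pooled differences of −0.72 to 0.56 among all 8. With a gap of at least 0.5 between the groups 290 genes lay higher and 161 lower, and with a gap of at least 1 the numbers were 154 and 22.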

How the data were processed

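Total RNA was biotin-labelled and hybridised 1 sample per one-colour Affymetrix array. The authors deposited 1 log2 value per probe set and array, and these values were compared between arrays without further scaling. The submitters' processing notes list RMA and limma and do not say what each did. RMA as usually run compresses differences of dim genes and assumes that most genes do not change. Of 10928 probe sets, 5498 have 1 budding yeast gene in the platform annotation, and for 47 genes with several the one with the highest mean was used, leaving 5449 genes. A table of assembly R64 gave 12 updated symbols and gene order.

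A mean for the 4 deletion arrays and one for the 3 wild-type arrays were fitted with limma 3.58.1 in R 4.3.3 (lmFit, eBayes; 5 residual and 3.14 prior degrees of freedom; two-sided; Benjamini-Hochberg over all genes, threshold 0.05). The median SE was 0.178. The contrast of tup1 against ssn6 came from a fit with a mean per genotype. The members and gene lists were chosen with earlier results of these data known. The text names CYC8 with TUP1, the genes with the 16 largest rises and the 10 largest falls, the 6 brightest and 6 dimmest called members, up to 4 called members per list, the 6 called members with the largest difference of each sign between the deletions, genes at the edge of the condition, and list members for contrast. On 20 simulated tables with 200 changed genes each, the fit recovered 29.6%, 71.9% and 95.8% of changes of 0.5, 1 and 2 (log2), and 5.37% of calls were false. These tables had independent noise, no difference between the deletions and no effect shared by the genes of an array. The rates therefore need not hold for the data. Alternatives were a mean per genotype, quantile normalization, median centring, a filter at the floor, trend and robust eBayes, array weights, replicate blocks, the mean of probe sets, other thresholds, each deletion alone and leaving out each array. The number of arrays limits the precision. The design text speaks of duplicates; all 3 wild-type arrays were used. Figures were drawn with matplotlib 3.10.9 in Python 3.11.15.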

Additional observations from a re-analysis of the deposited data

Results flagged for a closer look

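Among the 4 deletion arrays, 1 array stood apart from the other 3 for 11 of 169 named genes by Dixon's gap ratio, at a level that chance exceeds in about 1 of 20 groups, so a number of flags of this order can come from chance. In 8 of them the array was tup1 replicate 1. It was low for FLO9 (13.24, ratio 0.912), for the ribosome-related genes UTP6 (7.396, ratio 0.924), MRT4 (9.65, ratio 0.835), RPC31 (8.94, ratio 0.898) and NOP10 (11.20, ratio 0.854), and high for POT1 (13.68, ratio 0.838), SPS100 (13.89, ratio 0.850) and GLG2 (12.06, ratio 0.945). The others were THI13 (tup1 replicate 2 at 10.75, ratio 0.907), THI4 (ssn6 replicate 1 at 11.81, ratio 0.881) and RTC6 (ssn6 replicate 2 at 11.09, ratio 0.844).

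The deletions differed, by the contrast of tup1 minus ssn6 over all genes, for 15 of the 171 genes chosen by the naming rule. The tup1 deletion was higher for CYC8 (5.65), HXT10 (1.29), ARO9 (1.11), SPG1 (1.55) and KIN82 (1.03). It was lower for TUP1 (−6.97), DAN1 (−1.16), YML083C (−1.48), NDJ1 (−2.28), STE2 (−1.38), FLO11 (−1.48), AUS1 (−0.9999), PAU14 (−2.77), PAU8 (−2.76) and PAU17 (−1.94). TUP1 and NDJ1 were under the floor on both tup1 arrays, so their measured differences are not exact: TUP1 was at least 79.4-fold lower and NDJ1 at least 2.17-fold lower in the tup1 deletion. Of other genes mentioned in the text, MF(ALPHA)2 (−5.32), THI22 (−5.66), PAU18 (−2.59), PAU4 (−2.99), SAG1 (−2.28), BAR1 (−1.93), SUL1 (−1.22) and HPA3 (−1.12) also passed this contrast.

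Of 3470 probe sets with no gene in the annotation used, other than controls, 30 were called higher and 16 lower when all probe sets were fitted together, against 1 of 1746 fission yeast probe sets. They were not analysed further here.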

How the results depend on the processing

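None of the 161 named genes past the threshold changed direction under any alternative run, while CYC8, which did not pass, was 0.24 above wild type with only the tup1 deletion arrays. The 493 rises and 608 falls became 627 and 881 with a mean per genotype, where the difference between the deletions is not part of the spread. They became 765 and 1350 with array weights, 271 and 133 at an adjusted p of 0.01, and 302 and 150 when restricted to 2-fold changes. The falls numbered 377 with only the tup1 deletion arrays. Median centring gave 535 rises and 500 falls, so falls no longer led, while 841 genes lay higher and 1122 lower without overlap. Rises also outnumbered falls without any 1 of the wild-type or ssn6 arrays, with a replicate block and with only the tup1 deletion arrays (390 rises). Falls still led without tup1 replicate 1 or 2. Same-numbered arrays did not deviate together in every pair of groups (correlations over 5449 genes of −0.27 between the deletions, −0.36 and −0.27 between wild type and ssn6, and 0.28 and 0.18 between wild type and tup1), so the numbers were not taken as pairs; with a replicate block 304 genes rose, 162 fell and 25 members differed between the deletions, and of those 161 named genes 58 lost their call. A crossed replicate block, chosen after seeing the data, gave 376 rises and 296 falls. With 1 array left out, rises ranged from 367 to 446, falls from 263 to 574, members differing between the deletions from 1 to 105, and genes without overlap from 800 to 977 higher and 1318 to 1633 lower, which exceed the main counts because fewer arrays must agree. With array weights 146 members differed between the deletions. The gap of 0.5 left 290 higher and 161 lower genes, and the gap of 1 left 154 and 22. The dimmest bin held 147 higher members, 73 with bins by all arrays and 281 with 4 bins in place of 10. Shares of promoter motifs were not run. The number of arrays, 2 per deletion, limits every comparison between the deletions, and values near the floor give only bounds. The cause of these shifts was not tested.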

Other observations

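Cyclin genes were among the lists not described above: of 18, 2 rose and 1 fell, with 2 falls without wild-type replicate 3. These shares, 11.1% and 5.56%, compare with 9.05% and 11.2% of all genes. CLB1, a mitotic B-type cyclin, read 10.96, 10.72 and 11.01 in wild type and 11.97, 11.98, 11.39 and 11.61 in the deletions. PCL5, a cyclin of the Pho85 kinase, read 11.87, 11.46 and 11.69 in wild type and 12.48, 12.44, 12.56 and 12.09 in the deletions, and PCL9, another, read 9.87, 10.29 and 10.05 against 9.14, 9.27, 9.43 and 9.53. The call of PCL5 was lost without wild-type replicate 2 or 3 or ssn6 replicate 1. Of 24 amino acid permease genes 5 rose (20.8%) and 4 fell (16.7%), against 9.05% and 11.2% of all genes. There was 1 fall once wild-type replicate 1 was dropped, 2 once an ssn6 array was dropped and 6 once tup1 replicate 1 was dropped. The largest rise after VBA3 and BIO5 was the proline permease PUT4 (12.54, 11.46 and 10.72 in wild type and 13.16, 13.18, 13.42 and 13.11 in the deletions), which missed the threshold without wild-type replicate 2. Of 23 ergosterol genes 3 rose (13.0%) and 3 fell (13.0%), shares near the 9.05% and 11.2% of all genes. The falls were ERG2 (−0.88 ± 0.20), ERG12 (−0.74 ± 0.17) and ERG6. The falls of ERG2 and ERG12 were lost without wild-type replicate 1 or 3.

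Of 26 genes of chromatin remodelling and the mediator, 2 fell (7.69%, under the 11.2% of all genes), ADA2 (−0.99 ± 0.25) and ISW1 (−0.59 ± 0.13). The count was 1 or 0 when any 1 array other than tup1 replicate 1 was left out. Of 8 subtelomeric COS genes, COS10 alone passed, at −1.02 ± 0.22 (12.5% of the list, near the 11.2% of all genes that fell). Without wild-type replicate 1 or 3, 0 COS genes passed. In contrast to the rises of other genes near chromosome ends, 0 COS genes rose. Of 22 sulfur and methionine genes 3 fell (13.6%, against 11.2% of all genes) and SUL1, a sulfate permease, lay higher without passing. The sulfur falls numbered 0 without wild-type replicate 1 or 3.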
